A study of Mus musculus with 14 samples.

Results

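CAST-Seq reads the junctions between a cut site, used as the bait, and the DNA that became joined to it elsewhere in the genome. It was applied to CF-1 mouse embryonic fibroblasts (MEFs) 6 days after nucleofection of SaCas9 protein (3 µg) complexed with guide RNA (72 pmol). The treatments were guide g2 (SaCas9g2, 4 libraries), both guides (SaCas9g1+g2, 4 libraries) and guide g1 (SaCas9g1, 2 libraries), set by the study against 4 untreated samples whose counts were not analysed here. All treated groups carried the cutting nuclease, and both guides target the Hao1 gene on chromosome 2. The regions described here are the 265 that the deposited annotation placed in an intron, of 730 regions in all. They number 185 in SaCas9g2, 53 in SaCas9g1+g2 and 27 in SaCas9g1. Regions in a window of 300 kb that holds the Hao1 target and in 1 of 100 kb on chromosome 8 were left out, which removed 7 intron regions and left 717 regions of all kinds. The reference gene annotation placed the midpoint of all 265 in an intron as well.

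Introns are the stretches of a gene that are transcribed and then spliced out of the RNA. They make up much of the length of mammalian genes, and the longest genes consist almost wholly of intron. When 2 double-strand breaks exist in a nucleus at the same time, their ends can be joined wrongly, and a break inside an intron then ties the host gene to the other locus. Fusions counted here are distinct joining events (hits), while reads also count the copies made of each fusion by PCR. Libraries are named as in the deposited tables. They came from fewer cultures than libraries: the 4 SaCas9g2 libraries were technical repeats of 2 cultures, the 4 SaCas9g1+g2 libraries came from 3 cultures, and both SaCas9g1 libraries were technical repeats of 1 culture. Every comparison with SaCas9g1 therefore has 1 culture on that side, the SD of SaCas9g1 is technical only, and the tests below measure the spread between libraries. The first PCR annealed at 63 °C for SaCas9g2, against 61 °C for SaCas9g1+g2 and SaCas9g1, so guide and temperature cannot be told apart.

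A pair of sequence sets recurs in the results and is shown as read from the mouse genome (mm10). The first set is the pair of Hao1 targets, the bait end of every fusion, with the PAM in capitals. Target g1 lies at chr2:134548261-134548287 on the plus strand and target g2 at chr2:134548206-134548232 on the minus strand, both ranges with the PAM.
Target g1: tccgtggatagagcttccatcTGGAAT
Target g2: gtcaacttctgttttaggacaGAGAGT

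The second set is the intron region with the most hits, in Gm11110, beside the Hao1 target. The capitals mark the 15 bases that the deposited table lists as shared between the region (chr17:57100178-57100232, plus strand) and Hao1 (chr2:134548244-134548298, plus strand). In Hao1 these bases fall inside target g1, although the Gm11110 region was found with guide g2. The same bases are also the last ones of a decoy primer that the paper lists for CAST-Seq. Decoy primers serve to keep unedited sequence from being amplified. Whether the guide or this primer had a part in the region was not tested.
Gm11110: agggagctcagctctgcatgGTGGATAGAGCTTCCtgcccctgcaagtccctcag
Hao1: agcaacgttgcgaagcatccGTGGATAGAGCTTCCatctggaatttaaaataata

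Introns and distal intergenic sequence were the 2 large classes of fusion regions in all 3 treatments. Of the regions outside the windows, 37.6% were intronic with SaCas9g2 (exact Clopper-Pearson 95% interval 33.3 to 42.0%, 185 of 492). The share was 32.7% with SaCas9g1+g2 (25.6 to 40.5%, 53 of 162) and 42.9% with SaCas9g1 (30.5 to 56.0%, 27 of 63). Introns make up 40.1% of the bases of the reference genome, or 32.4% when bases within 3 kb of a transcript start are left out, as the deposited annotation gives those to promoters. Distal intergenic regions made up 44.1% in SaCas9g2, 48.8% in SaCas9g1+g2 and 44.4% in SaCas9g1. By hits the intron share was 34.1% in SaCas9g2, 25.1% in SaCas9g1+g2 and 31.7% in SaCas9g1.

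Library by library, the intron share of regions with reads was 30.5, 33.1, 37.9 and 39.3% in SaCas9g2 (g2-A-MEF, g2-B-MEF, Hao1-g2A, Hao1-g2B). It was 34.9, 31.8, 34.3 and 31.4% in SaCas9g1+g2 (g1-2-A-MEF, g1-2-B-MEF, g1-2-old-MEF, Hao1-g1-2B) and 40.9 and 40.4% in SaCas9g1 (g1-B-MEF, Hao1-g1B). Both SaCas9g1 libraries lay above all others, and the SaCas9g2 and SaCas9g1+g2 libraries overlapped. The mean was 35.2 ± 4.11% in SaCas9g2 (SD, n = 4), 33.1 ± 1.76% in SaCas9g1+g2 (n = 4) and 40.7 ± 0.342% in SaCas9g1 (n = 2). SaCas9g2 minus SaCas9g1 was −5.48 percentage points and SaCas9g1+g2 minus SaCas9g1 was −7.57 (exact two-sided permutation tests, p = 0.133 each, the smallest p that 4 libraries against 2 allow). SaCas9g2 minus SaCas9g1+g2 was 2.09 points (exact permutation test, p = 0.371). All 3 Holm-adjusted p were 0.4, and none could have fallen below 0.0857.

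Reads in introns were also set against those of the on-target region. For every 1000 reads of the on-target region, introns held 462, 302, 360 and 541 reads in the SaCas9g2 libraries. The SaCas9g1+g2 libraries held 27.2, 114, 94.7 and 136, and the SaCas9g1 libraries 27.9 and 51.9. Each SaCas9g2 library was above every library of the other treatments, while SaCas9g1+g2 and SaCas9g1 overlapped. On the log2 scale SaCas9g2 minus SaCas9g1+g2 was 2.35 (exact two-sided permutation test, p = 0.0286, Holm-adjusted 0.0857). SaCas9g2 minus SaCas9g1 was 3.42 (exact permutation test, p = 0.133, Holm-adjusted 0.267), and SaCas9g1+g2 minus SaCas9g1 was 1.06 (p = 0.4, Holm-adjusted 0.4, exact permutation test). Regions outside introns went the same way, with 849, 470, 682 and 695 reads per 1000 on-target reads in SaCas9g2 libraries, 85.8, 268, 133 and 260 in SaCas9g1+g2 libraries, and 17.1 and 51.0 in SaCas9g1 libraries, so each SaCas9g2 library was above every other library outside introns too. With all reads of the library as the denominator, the log2 differences in introns were 1.54 for SaCas9g2 minus SaCas9g1+g2, 2.32 for SaCas9g2 minus SaCas9g1 and 0.78 for SaCas9g1+g2 minus SaCas9g1 (Holm-adjusted p = 0.0857, 0.267 and 0.4, exact permutation tests). No adjusted p passed the threshold.

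Library names come in 2 styles, with MEF or beginning with Hao1, and what the style stands for is not given in the sources used here. In SaCas9g2 both Hao1 libraries had a higher intron share than both MEF libraries. Within a style, a comparison added after seeing the data, SaCas9g2 minus SaCas9g1 was −9.12 points among MEF names and −1.84 among Hao1 names, and SaCas9g1+g2 minus SaCas9g1 was −7.25 and −9.00 points. SaCas9g2 minus SaCas9g1+g2 was −1.87 points among MEF names and 7.15 among Hao1 names, so its direction was not the same in both. Intron reads per 1000 on-target reads kept 1 direction in both styles, with SaCas9g2 minus SaCas9g1+g2 at 2.49 and 1.70 on the log2 scale, SaCas9g2 minus SaCas9g1 at 3.74 and 3.09, and SaCas9g1+g2 minus SaCas9g1 at 1.25 and 1.39. Each of these values has only 1 library on at least 1 side, except SaCas9g2 minus SaCas9g1+g2 among MEF names. With the style as a block, the Holm-adjusted p were 0.667 for all 3 differences in share, and 0.2, 0.444 and 0.5 for the differences in reads (exact permutation tests).

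The number of intron regions with reads was 53, 53, 75 and 77 in SaCas9g2 libraries, 15, 27, 23 and 22 in SaCas9g1+g2 libraries, and 9 and 19 in SaCas9g1 libraries.

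**Figure D1:**
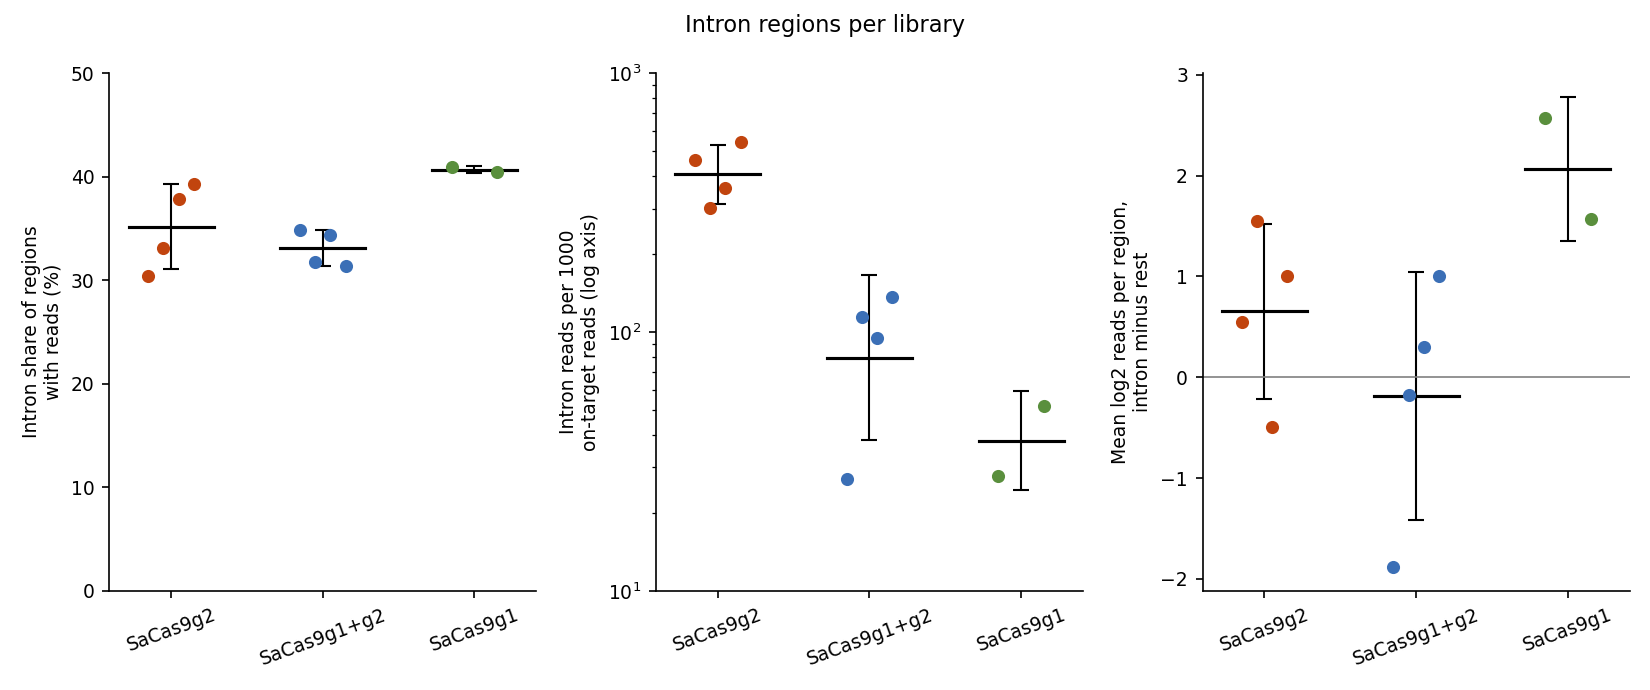
Each point is 1 library of SaCas9g2, SaCas9g1+g2 or SaCas9g1, the bars are means and the whiskers SDs (taken on the log2 scale in the middle panel). The panels give the intron share of regions in percent, the intron reads per 1000 on-target reads on a log axis, and the mean log2 reads of intron regions minus that of all other regions, and the SaCas9g2 libraries stand apart in the middle panel, between 302 and 541.

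Reads per region did not differ between introns and the rest beyond the spread of the libraries. The mean log2 reads of intron regions minus that of all other regions was 0.55, 1.55, −0.50 and 1.00 in the SaCas9g2 libraries. It was −1.89, −0.17, 0.30 and 1.00 in the SaCas9g1+g2 libraries, and 2.57 and 1.56 in the SaCas9g1 libraries. The mean was 0.60 ± 1.25 (SD, n = 10, exact two-sided sign-flip permutation test, p = 0.164), with 7 libraries above 0 and 3 below. Without g1-2-A-MEF, the shallowest library at 459219 reads, it was 0.88 (exact test, p = 0.0273). Without the regions that hold tandem TTAGGG, an alternative chosen after seeing the data, it was 0.17 (exact test, p = 0.662). Such regions made up 1 of 27 intron regions but 11 of 36 other regions in SaCas9g1, where the median region held 1341 reads in introns and 104 in the rest. Their part in the difference between the 2 classes was measured only by leaving them out.

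Most intron regions were seen in 1 library. Of the 265, 182 had reads in a single library (68.7%), as had 277 of 452 other regions (61.3%). Intron regions had a median of 3 hits and a median of 3320 reads, and the median over regions of reads per hit was 770. The median region outside introns had 3 hits and 3179 reads. Of the 71 intron regions with at least 1000 reads in the leading library and reads in a further one, 68 had at most 10 reads in the next library, and the median was 1 read. In SaCas9g2, the libraries Hao1-g2A and Hao1-g2B shared 36 intron regions that no other library held, and g2-A-MEF and g2-B-MEF shared 13. The 4 pairs across these name styles shared 2, 0, 0 and 2 such regions. In SaCas9g1+g2, g1-2-B-MEF and g1-2-old-MEF had 19 intron regions in common and each of them had 11 in common with g1-2-A-MEF, whereas Hao1-g1-2B had 0, 3 and 2 in common with g1-2-A-MEF, g1-2-B-MEF and g1-2-old-MEF. In SaCas9g1, the 2 libraries shared 1 intron region, in Ctse. What makes libraries of similar name share a region was not tested.

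**Figure D2:**
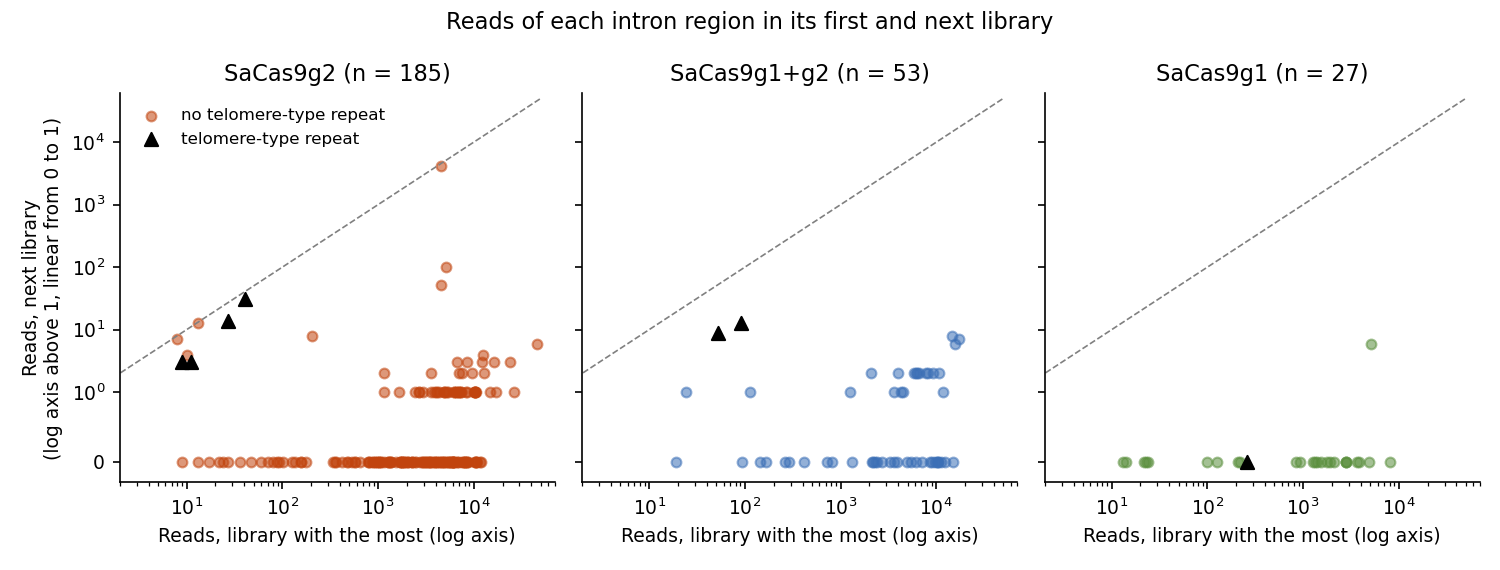
Each point is 1 intron region, with its reads in the library that holds most of them on the horizontal axis and its reads in the next library on the vertical axis (log axes, the vertical one linear from 0 to 1). Triangles hold the telomere-type repeat, the dashed line marks equal reads, and most regions lie at 0 or 1 on the vertical axis.

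Calls were counted as regions with 2 or more libraries whose deposited p against untreated cells, after adjustment, was under 0.05. In SaCas9g2, 7 of 185 intron regions were called (3.78%, exact 95% interval 1.53 to 7.64%), where 5.49% of all regions outside the windows were. In SaCas9g1+g2 it was 1 of 53 (1.89%, interval 0.0478 to 10.1%), against 4.32% of all regions. In SaCas9g1 it was 0 of 27 (exact 95% interval up to 12.8%), against 3.17% of all regions. Outside introns 20 of 307, 6 of 109 and 2 of 36 were called in SaCas9g2, SaCas9g1+g2 and SaCas9g1. The called share of introns was below that of all regions in each treatment, but each interval includes the share of all regions. No test was made of the difference.

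Of the 7 called SaCas9g2 regions, 6 are described here, and they were of 2 kinds. Some held reads in every library. Gm11110, whose sequence is shown above, had 26 hits and 5, 2, 13 and 13 reads (g2-A-MEF, g2-B-MEF, Hao1-g2A, Hao1-g2B), close to 1 read per hit. Pepd, which encodes the dipeptidase prolidase, had 41, 11, 5 and 31 reads, and Col4a6, a type IV collagen chain of basement membranes, had 2, 2, 27 and 14. The region named 4933422A05Rik had 3, 202, 2 and 8 reads. Others held most of their reads in 1 or 2 libraries and none in the remaining ones. Plcb1, a phospholipase C, had 0, 4190, 0 and 4540 reads from only 3 hits, and 1700029N11Rik had 0, 5112, 0 and 99. In Plcb1 the reads were balanced between 2 libraries, and in 1700029N11Rik 1 library held nearly all. The single call with SaCas9g1+g2 was again Pepd, with 0, 13, 10 and 92 reads (g1-2-A-MEF, g1-2-B-MEF, g1-2-old-MEF, Hao1-g1-2B).

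**Figure D3:**
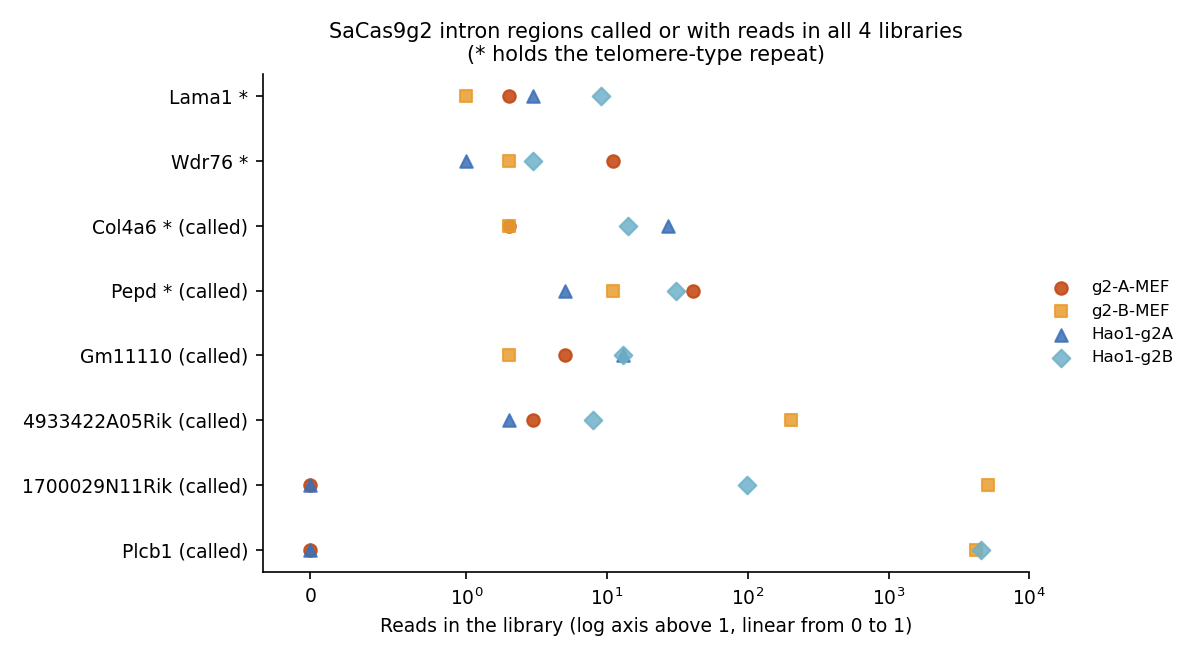
Reads in each of the 4 SaCas9g2 libraries (log axis, linear from 0 to 1) for the intron regions that were called or had reads in all 4 libraries, 1 row per region and 1 symbol per library. Regions with an asterisk hold the telomere-type repeat and stay between 1 and 41 reads, while Plcb1 and 1700029N11Rik have libraries with 0 reads and reach 4540 and 5112. 1 called region is not shown.

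The hexamer TTAGGG is the unit of vertebrate telomeres and also occurs inside chromosomes. Regions that hold it in tandem were few in introns. At least 2 TTAGGG hexamers in tandem, on either strand, were found in 7 of the 265 intron regions (2.64%) and in 35 of 452 other regions (7.74%). By treatment, intron regions with the repeat numbered 4 of 185 in SaCas9g2, 2 of 53 in SaCas9g1+g2 and 1 of 27 in SaCas9g1, beside 18 of 307, 6 of 109 and 11 of 36 outside introns. Of all intron stretches of 505 bases in the genome, 0.0254% hold such a repeat. With SaCas9g2, Lama1 (a laminin chain) had 2, 1, 3 and 9 reads and Wdr76 (a WD-repeat protein) had 11, 2, 1 and 3, so that all 4 repeat regions of this treatment, with Pepd and Col4a6, had reads in every library. With SaCas9g1+g2, Col4a6 had 0, 1, 9 and 53 reads. With SaCas9g1, the only such region lay in Pde1c, a cyclic nucleotide phosphodiesterase, with 257 reads, all in Hao1-g1B. Reads were found in 3 or more libraries for 6 of the 7 repeat regions, and for 13 of the 258 other intron regions. Among the 6, Pepd and Col4a6 are each counted with 2 treatments. Repeat regions had a median of 5.25 reads per hit, and the other intron regions 818. The authors' untreated counts were not used, so the level of these regions without nuclease is not given.

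The 265 regions formed 260 intron loci, of which 256 were found with 1 treatment, 4 with more than 1 (1.54%), and 1 with all 3. Outside introns, 16 of 433 loci were found with more than 1 treatment (3.70%), and 2 of them with all 3. The labels do not tie an untreated sample to a treatment, so the tables may share controls, and their values are given side by side. Ctse, which encodes the aspartic protease cathepsin E, was the locus in all 3. It had 45837, 6, 0 and 0 reads in the SaCas9g2 libraries, 3, 8, 14449 and 0 in the SaCas9g1+g2 libraries, and 6 and 5179 in the SaCas9g1 libraries. In each treatment 1 library held nearly all reads. The Ctse region aligned over 515 bases, at 96.9% identity, to the chromosome 8 region that was left out, and whether reads of the 2 places were kept apart was not tested. Outside introns 2 of 452 regions aligned to it. Tmem117, a transmembrane protein gene, had 1, 8226, 2 and 0 reads with SaCas9g1+g2 and 14 and 0 with SaCas9g1. Pepd and Col4a6, described above, were the other 2.

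Most of the other regions with the most hits held all or nearly all of their reads in 1 library. Hits were not split by library here. With SaCas9g2, Ano2, a calcium-activated chloride channel, had 25 hits and 12215 reads, of which 12212 were in Hao1-g2B. A region in Shld1, a shieldin subunit of double-strand break repair, had 19 hits and 10411 reads, with 10410 in g2-A-MEF. Cdk19, a kinase of the Mediator complex, differed, with 18 hits but only 4, 0, 8 and 7 reads (g2-A-MEF, g2-B-MEF, Hao1-g2A, Hao1-g2B). Serinc5, a membrane protein, had 16 hits and 6947 reads, 6946 of them in Hao1-g2B. With SaCas9g1+g2, Dnmt3a, a de novo DNA methyltransferase, had 12 hits and 14783 reads, all in Hao1-g1-2B. Col4a6 also had 12 hits, and Ebf4, Ctse and Mrc1 had 11 each. With SaCas9g1, Plac1, a gene of the placenta, had 12 hits and 1341 reads, all in g1-B-MEF, and Man1c1 and Dok6 had 8 each. By reads, Ctse led in SaCas9g2, before Camk2b (26032), Mcf2l (23621), a region named Galnt2 (16947) and Rarb (16203). Col4a4 led in SaCas9g1+g2 with 17175 reads, in 3 libraries, 17167 of them in g1-2-old-MEF. In SaCas9g1 a region in Rrp12, a ribosome assembly gene, led with 8128 reads from 2 hits in Hao1-g1B, under the table name Mir3084-2, and Cacna1d, an L-type calcium channel, had 4935 in g1-B-MEF.

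Pooled over the treatments, chromosome 2, which carries Hao1, held more intron regions than any other chromosome. It held 49 of the 265 (18.5%, exact 95% interval 14.0 to 23.7%), where it has 7.55% of the intron bases of the genome. The counts were 35 of 185 in SaCas9g2, 11 of 53 in SaCas9g1+g2 and 3 of 27 in SaCas9g1. In SaCas9g1 chromosome 1 had more, with 4 regions, and the share of chromosome 2 (11.1%, exact 95% interval 2.35 to 29.2%) includes its 7.55% of intron bases. Per library, the share was 10.4 to 24.5% in SaCas9g2, 13.6 to 26.7% in SaCas9g1+g2 and 10.5 to 11.1% in SaCas9g1. Outside introns, 93 of 452 regions (20.6%) were on chromosome 2, so a high share there was common to both classes. Chromosome 19 came out above its share of intron bases too, with 13 regions (4.91%, interval 2.64 to 8.24%, against 2.62%), where the lower bound lies close to the share. Chromosomes 7 and 15 came out below theirs, with 5 regions (1.89%, 0.615 to 4.35%, against 5.74%) and 4 regions (1.51%, 0.413 to 3.82%, against 3.95%). The intervals of all chromosomes were looked at without adjustment for their number, and some loci count in more than 1 treatment. Regions outside introns were not counted for chromosomes 7, 15 and 19, so whether these shares are particular to introns was not tested. Within 10 Mb of the targets lay 17 intron regions (6.42%), a span that holds 1.01% of the intron bases, and 7 lay within 3 Mb (2.64% against 0.239%). Outside introns 19 of 452 regions lay within 10 Mb and 11 within 3 Mb (2.43%), so regions of both classes lay near the targets.

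The nearest intron regions were in Plcb1, at 0.713 and 0.786 Mb from the targets, and in Plcb4, its paralog, at 1.43 Mb. On the other side, both Shld1 regions lay at −1.84 and −1.85 Mb and Slc23a2 at −2.46 Mb, with Gpcpd1 between them. All of these were found with SaCas9g2. Macrod2, a mono-ADP-ribosylhydrolase, had 1 region with SaCas9g2 and 2 with SaCas9g1+g2, at 6.81 to 7.47 Mb. Ebf4 lay at −4.22 Mb, with 15801 reads in SaCas9g1+g2, and the nearest SaCas9g1 region, in the splicing factor gene Snrnp200, lay at −7.33 Mb.

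**Figure D4:**
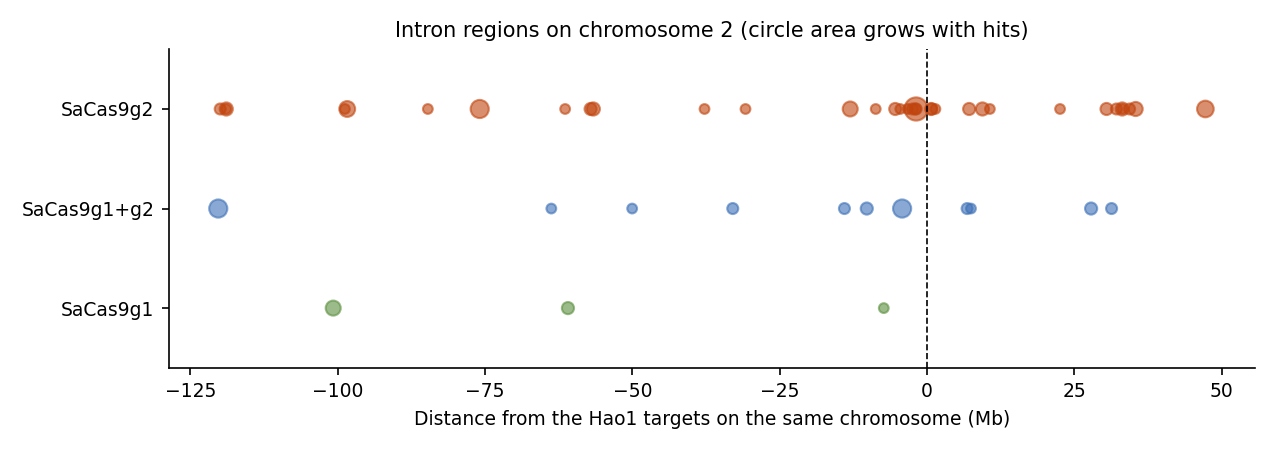
Each circle is 1 intron region on chromosome 2, placed by its distance in Mb from the Hao1 targets (dashed line) and sized by its hits, with a row each for SaCas9g2, SaCas9g1+g2 and SaCas9g1. The SaCas9g2 row is densest near the targets, with 13 of its 35 regions within 10 Mb.

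Most host genes were long. The median length of the host genes named in the tables was 128 kb in SaCas9g2, 156 kb in SaCas9g1+g2 and 165 kb in SaCas9g1. By the reference annotation the medians were 123, 146 and 165 kb. Genes of 133 kb or more hold as many intron bases as all shorter ones, while the median of all annotated genes is 3.33 kb. Host genes over 500 kb numbered 30 in SaCas9g2, 7 in SaCas9g1+g2 and 3 in SaCas9g1. The first intron held 78 of the 265 regions (29.4%), of which 12 lay in transcripts with a single intron. The share of intron bases in first introns was not computed, so no background is given. The midpoint lay outside the deposited gene span for 16 of the 265 regions. For 36 regions, some of which differ in gene name only (Peds1 is Tmem189 in the reference), no reference gene of the deposited name held the midpoint. Among these, 10 regions were named Mir3084-2, a gene that the tables give a span of 35.8 Mb, and 3 were named Galnt2, whose table span of 4.43 Mb is that of the reference gene Gm20388.

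**Figure D5:**
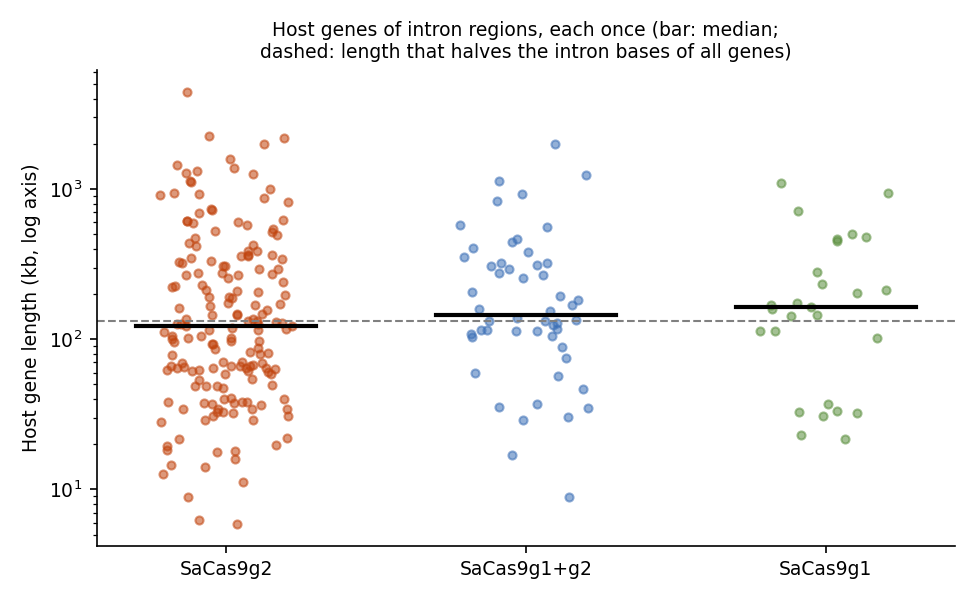
Each point is 1 host gene by the reference annotation, with its length in kb on a log axis, for SaCas9g2, SaCas9g1+g2 and SaCas9g1, and bars mark medians. The dashed line is the gene length at which shorter and longer genes hold equal intron bases (133 kb), and the medians of 123, 146 and 165 kb lie near it.

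Genes of common fragile sites, long genes that break readily under replication stress, were described as a list. Regions in 11 of the 26 listed genes made up 17 members (6.42%), and the 24 listed genes found in the reference hold 2.54% of intron bases. Of these members 15 were from SaCas9g2, 2 from SaCas9g1+g2 and 0 from SaCas9g1. They include the Macrod2 regions on chromosome 2 described above. Dmd, the dystrophin gene, had 4 regions within 90.2 kb with SaCas9g2, with 3567, 1849, 1145 and 1736 reads, led by 3 different libraries. By the deposited annotation, 1 of them lay in intron 37 and 3 in intron 43. Wwox, an oxidoreductase gene, had 2 regions with 12872 and 6276 reads, and Immp2l, a mitochondrial peptidase, had 1 with 6985. Synaptic adhesion genes held 8 members (3.02%), beside 2.97% of intron bases, among them Lsamp and Cntn5, and Il1rapl1, which the fragile site list also holds. Of 53 cancer genes, 1 held a member, Dnmt3a (0.377%, beside 0.705% of intron bases). The lists were chosen with earlier results of these data known, and they were not tested.

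Matches to the guides were weak. The study classes a region as OMT where the guide aligns well and as HMT where a long stretch is shared with the bait. In introns 4 of 265 regions were OMT (1.51%) and 4 were HMT (1.51%), beside 5 OMT (1.11%) and 4 HMT (0.885%) of 452 regions outside introns. All 4 OMT and all 4 HMT intron regions were from SaCas9g2, the treatment with the most regions. Outside introns SaCas9g2 had 3 OMT and 3 HMT regions, and SaCas9g1+g2 had 2 and 1. The deposited p of the guide alignment and of the shared stretch, after adjustment, was below 0.05 in 0 intron regions, and none of the 4 OMT regions was called. The best guide score was 10, in Zfp804b, a zinc-finger gene, with 6 hits and 3437 reads in g2-B-MEF alone. The deposited alignment lies at chr5:7095763-7095789 on the minus strand. Counted from the 5′ end of g2, it differs by C6T, T7C, G11T, A19G and C20A, shown here as capitals together with 1 unmatched PAM base.
Zfp804b: gtcaaTCtctTttttaggGAatcAaat

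The other OMT regions, in Tnfsf15 (a cytokine gene), Notch2 (a receptor gene) and Ppp1r7 (a phosphatase regulator), scored 8 each. The best score among SaCas9g1 intron regions was 7, in Thsd7b, and among SaCas9g1+g2 ones 6, in Tmem117, Gab1 and Kctd10. The median score was 3 in introns and 3 in the rest. Of the HMT regions, Gm13944 and the second Shld1 region shared TA repeats of 41 and 40 bases with sequence beside the targets, and Agbl4 and Lrrc4c shared runs of 26 bases made almost wholly of T. The median longest shared stretch was 12 bases in introns and 12 in the rest. Intron regions had a median of 23.8% soft-masked (repetitive) bases, against 24.8% in the rest, and a GC content of 44.3%, against 42.2% in the rest.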

How the data were processed

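The submitters' processing notes name Bowtie2 2.3.4.2 and bedtools 2.27.1 among the tools. Per the file headers, the deposited counts are hits and reads per region and library, without normalization. The authors' p-values compare a region with untreated cells, and the deposited score rates the guide alignment. The adjusted p-values served only to count calls. Positions match mm10, and genes were read from GENCODE M21. Libraries held 459219 to 1716787 reads, and intervals cover counting error only, since reads include PCR copies.

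Of the tables of all regions, 6 lines without a position were left out. Differences between treatments were tested with exact permutations of the libraries, two-sided as 2 times the smaller tail, with Holm adjustment over 3 comparisons, and introns with the rest by an exact sign-flip test over libraries, at a threshold of 0.05. The tests were checked on simulated data. Alignment used BLAST 2.17.0, and statistics NumPy and SciPy 1.17.1. Another 20 columns of single libraries (hits and unadjusted p-values) were not used. Columns were assigned to a treatment by the guide in their name. The members and the gene lists were chosen with earlier results of these data known. Named genes are those of called regions, of the 5 regions with the most hits or reads and the 5 longest genes per treatment, of chromosome 2, of shared loci, of the lists, and of OMT, HMT or best-scoring regions, from which examples are given. A called region and some sequences are not reported here.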

Additional observations from a re-analysis of the deposited data

How the results depend on the processing

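Of 67 recomputed treatment comparisons, 66 kept their direction, but none of these comparisons could pass the threshold after adjustment, so their side of it tells nothing of their stability. Of the other 55 recomputed values, 36 kept their side of the threshold or stayed within the set margin. The difference in intron share per library between SaCas9g2 and SaCas9g1+g2 turned to −1.03 percentage points under the reference annotation of the midpoint. Reads per region, intron minus rest, ranged from 0.38 to 0.88 on the log2 scale when 1 library was left out, and passed the threshold only without g1-2-A-MEF. Without the regions that hold tandem TTAGGG, chosen after seeing the data, it was 0.17. By reads in place of hits, introns held 37.7% in SaCas9g2, 34.8% in SaCas9g1+g2 and 54.0% in SaCas9g1. With the reference annotation they held 44.3% of regions and 41.7% of hits in SaCas9g2, 42.6% and 34.8% in SaCas9g1+g2, and 38.2% of hits in SaCas9g1. With the 2 windows kept, they held 18.7, 8.17 and 5.49% of hits in SaCas9g2, SaCas9g1+g2 and SaCas9g1. Among regions with reads in at least 2 libraries, 33.1% of 181 were intronic in SaCas9g2 and 31.0% of 71 in SaCas9g1+g2. In SaCas9g1 it was 1 of only 6 (16.7%). Called in every library were 0 intron regions in SaCas9g2 and 0 in SaCas9g1+g2, and with at least 10 hits 4 and 0. Counting each region, the median host gene length was 144 kb in SaCas9g2. The causes were not tested.

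The two-sided p of the permutation tests can also be counted over absolute differences. Both ways were computed, and the doubled tail was taken as the main one after the values of both had been seen, since it is the definition of the SciPy test. Counted the other way, the smallest p of 4 libraries against 2 is 0.0667. The Holm-adjusted p of the intron share were then 0.267, 0.2 and 0.371, and those of the intron reads 0.133, 0.4 and 0.0857 (exact permutation tests, SaCas9g2 against SaCas9g1, SaCas9g1+g2 against SaCas9g1, SaCas9g2 against SaCas9g1+g2). The differences themselves were as given in the report, from −7.57 to 2.09 points and from 1.06 to 3.42 on the log2 scale, and no call changed. No paired analysis was possible because the library names carry no replicate number and the letters A and B are missing from some names. With the style of the library name as a block, added after seeing the data, the mean differences over both styles were −5.48, −8.12 and 2.64 points in share and 3.42, 1.32 and 2.09 on the log2 scale in reads, in the same order of comparisons. With 2 to 4 libraries per treatment, the smallest adjusted p of these comparisons is 0.0857, above the threshold.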

Other observations

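The median intron region with SaCas9g2 had 770 reads per hit, with SaCas9g1+g2 1135 and with SaCas9g1 317. Of the 265 intron regions, 20 had at least 10 hits and 81 had 2, the lowest number listed. The deposited column of cancer genes within 100 kb was filled for 39 intron regions (14.7%) and for 51 of 452 other regions (11.3%).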
